A study of Mus musculus with 178 samples.

Results

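Fibro-adipogenic progenitors (FAP) and endothelial cells (EC) were compared within the same muscle preparations 2 days after injury. All wild-type FAP libraries of day 2 (6) were set against all wild-type EC libraries of day 2 (6), 12 of the 178 RNA libraries of the series, and libraries of equal replicate number were paired. The series followed sorted cell populations of the mouse tibialis anterior muscle, before injury and on the days that followed it. The injury was made with notexin, a toxin from snake venom that kills muscle fibres while their stem cells survive. Per the labels, the 12 libraries came from wild-type mice whose PDGFRa gene carries an EGFP reporter. FAP were sorted as CD45-/CD31-/EGFP+ cells and EC as CD45-/CD31+ cells, so the reporter, and not a stain for the protein, defined the FAP gate, and both populations came from reporter mice. Undamaged muscle, used for the question of how far the difference was already there before injury, gave 3 FAP and EC pairs that share a preparation code and the same gates. The labels do not say how many animals a preparation held or whether animals were pooled, so the p-values reflect how the libraries varied, which may be technical variation.

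FAP are the interstitial mesenchymal cells of skeletal muscle. They are known for depositing the matrix that bridges a wound, for secreting cytokines that act on leukocytes and muscle stem cells, and for turning into fibroblasts or adipocytes when repair fails. EC line the capillaries and larger vessels, exchange lipids and gases with the fibres, admit leukocytes from the blood and sprout new vessels under VEGF, angiopoietin and Notch control. FAP lie beside the vessels, and several of the best known signals between perivascular and endothelial cells are ligand and receptor pairs made by different partners.

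Gene counts summed to between 1276196 and 23292803 in the FAP libraries and between 4944303 and 21829586 in the EC libraries, the shallowest being FAP library 2. Of the genes that set the gates, Pdgfra and Pecam1 followed them in all 6 pairs. Levels of single genes are counts per 1000000 gene counts (CPM), scaled within the fit. Marker sums and levels relative to other populations are CPM without this scaling. Pdgfra, the gate gene of FAP, stood at 832 to 1568 CPM in FAP and at 3.92 to 292 in EC. Pecam1, which encodes CD31, stood at 0.787 to 41.0 in FAP and 2461 to 4750 in EC. Ptprc encodes CD45, which both gates excluded. Without the scaling, it stood at 0.687 to 3.12 CPM in FAP and 6.96 to 99.9 in EC. Its median in the CD45+ inflammatory cells of day 2 was 251 CPM. EC library 6 stood apart from the other EC libraries. The summed level of 14 stromal markers was 957 to 6083 CPM in EC libraries 1 to 5 and 22355 CPM in EC library 6, which is 1.43% to 13.1% and 32.1% of the paired FAP library. FAP library 1 was the highest of the FAP libraries for 16 endothelial markers (503 CPM, against 371 to 454 in the other 5). Relative to the paired EC library this sum did not stand out, at 2.35% against 1.97% to 2.56% in the other 5. The sum includes Eng, with 22114 counts in the FAP libraries together, against 750 for Pecam1 and 800 for Cdh5. Several single endothelial genes did stand out in FAP library 1, among them Pecam1 (41.0 CPM), Cdh5 (40.4) and Kdr (16.8). The stromal sum in EC relative to its paired FAP library was higher in pairs 4 to 6 (8.19%, 13.1% and 32.1%), whose preparation codes hold R52, than in pairs 1 to 3 (2.48%, 1.75% and 1.43%). Among undamaged pairs this percentage was 2.90%, 1.21% and 0.774%. Every count below was repeated without pair 6. That value is given where a count moved by over 1.5 times or a named call of the day 2 comparison was lost.

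**Figure D1:**
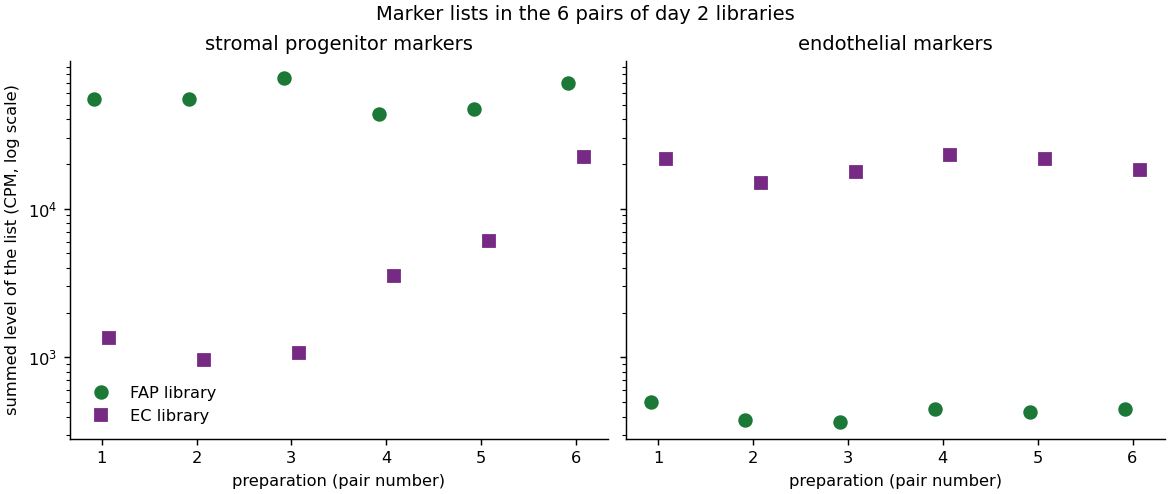
Summed level (CPM, log scale) of the stromal and the endothelial marker lists in each day 2 library. Each point is 1 library, and the stromal sum of EC library 6 (22355 CPM) lies far above that of EC libraries 1 to 5 (957 to 6083 CPM).

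Markers of further cell types were also measured. The summed level of 8 leukocyte markers was 25.3 to 50.02 CPM in FAP and 162 to 833 CPM in EC, higher in EC in 6 of 6 pairs, and the EC median was 3.91% of the median of the CD45+ inflammatory cells of day 2. None of the 8 was at 0 in every library of either population. For 12 macrophage markers the EC median was 3.51% of that in inflammatory cells, and the range was 382 to 2656 CPM against 143 to 188 CPM in FAP. For 6 neutrophil markers the EC range was 5.22 to 203 CPM, with libraries 1 to 3 at 160 to 203 and libraries 4 to 6 at 5.22 to 11.1, and the FAP range was 0 to 5.36. The 10 pericyte and smooth muscle markers summed to 166 to 2682 CPM in EC and 284 to 639 CPM in FAP. Their part in the results below was not tested.

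Of 12427 genes tested, 6717 differed between the paired populations (54.1%, edgeR quasi-likelihood test with preparation as a block, Benjamini-Hochberg adjusted p under 0.05). FAP were higher for 3452 genes (27.8%) and EC for 3265 (26.3%). With a log2 fold change beyond 1 as well, 2169 were higher in FAP (17.5%) and 2086 in EC (16.8%). The shares of a gene list given below are to be read against these. In pairs 1 to 3 alone 5730 genes were called and in pairs 4 to 6 alone 4186. All adjusted p-values below are from this test, and log2 fold changes are FAP minus EC. The ± after a log2 fold change is a standard error computed back from it and the F statistic of the test. Levels are CPM scaled within the fit, given as the lowest, the median and the highest of 6 libraries. In such bulk libraries more cells of a type and more RNA per cell cannot be told apart.

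The 12 genes with the highest fold change toward FAP included Pdgfra, which the sort used, and genes of secreted proteins and enzymes. Myoc, which encodes myocilin, an extracellular glycoprotein, stood at 431, 727 and 1246 CPM in FAP and at 2.32, 21.3 and 130 in EC. Its log2 fold change was 5.36 ± 0.86 (adjusted p = 0.000446), and all FAP libraries lay above all EC libraries. Aldh1a2, the enzyme that makes retinoic acid, stood at 783, 1085 and 1426 CPM in FAP and 4.81, 60.2 and 349 in EC (5.15 ± 0.95, adjusted p = 0.00106), again without overlap. Svep1, a large adhesive matrix protein (5.08 ± 0.93), Cxcl14, a chemokine (5.02 ± 1.05), and Ptx3, a soluble pattern recognition receptor (4.94 ± 1.03), were also among them. For these 5 genes the EC levels were 2.32 to 12.1 CPM in libraries 1 to 3 and 38.02 to 917 CPM in libraries 4 to 6, and without pair 6 their log2 fold changes were 5.71 to 5.92.

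The 12 genes with the highest fold change toward EC included the following. Gpihbp1 (chr15:75596628-75599481, plus strand), the protein that carries lipoprotein lipase to the capillary lumen, stood at 0.0855, 0.212 and 1.07 CPM in FAP and at 188, 499 and 663 in EC. Its log2 fold change was -10.05 ± 0.59 (adjusted p = 5.85e-07). Podxl, a sialomucin of the luminal membrane, reached -9.83 ± 0.68, Robo4 -9.65 ± 0.42 and the endothelial cadherin Cdh5 -9.53 ± 0.62. FAP library 1 held the highest FAP level of Podxl (19.1 CPM) and Cdh5 (40.4 CPM), far from the other FAP libraries, and in no library did FAP reach an EC level.

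Among transcription factors, 10 of 13 tested stromal regulators were higher in FAP (median log2 fold change 3.56) and 1 in EC, and 14 of 15 endothelial regulators were higher in EC (median -6.06), against a median of -0.000139 over all genes tested. The stromal group was led by Prrx2 (4.45 ± 0.63), Osr2 (4.14 ± 0.57), Tbx15 (3.89 ± 0.46) and Osr1 (3.83 ± 0.61), homeobox, zinc finger and T-box factors of limb and muscle connective tissue. Tbx15 stood at 98.0, 116 and 152 CPM in FAP and 2.67, 6.79 and 33.7 in EC, without overlap. Meox1, a homeobox factor of the somite lineage, did not pass the test, at 53.3, 78.9 and 111 CPM in FAP and 56.9, 75.1 and 103 in EC (0.00 ± 0.23, adjusted p = 0.993). The endothelial group included Sox17 (-8.92 ± 0.64), an arterial regulator, Erg (-7.79 ± 0.47), an ETS factor that maintains endothelial identity, and Hhex (-7.74 ± 0.44), a homeobox factor of blood and vessel progenitors. Tal1, a haemangioblast factor, stood at 25.8, 36.0 and 42.8 CPM in EC, while FAP held 3 counts in all 6 libraries together, too few for a fold. Few FAP counts also leave the size of other large folds toward EC uncertain. Examples are Hoxb4 (9 counts in the FAP libraries together), Hhex (11), Dll4 (17), Gja5 (20) and Gpihbp1 (24). Nr2f2, which specifies veins but is also expressed by mesenchyme, differed less, at 11.8, 20.3 and 46.2 CPM in FAP and 26.2, 35.8 and 90.4 in EC (-1.0 ± 0.18, adjusted p = 0.000978), and the groups overlapped.

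Positional Hox genes split between the populations. Of 12 tested, 8 were higher in FAP and 3 in EC. The posterior limb genes Hoxc10 (3.19 ± 0.39) and Hoxa11 (2.98 ± 0.45) were higher in FAP, at 18.5, 23.0 and 30.9 CPM against 0.356, 2.16 and 8.45 in EC for Hoxc10. The more anterior Hoxb4 and Hoxa5 were higher in EC. Hoxb4 stood at 10.7, 13.8 and 35.0 CPM in EC and at most 0.268 in FAP (-7.17 ± 0.39, adjusted p = 3.64e-07), and Hoxa5 reached -3.28 ± 0.46.

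ETS factors such as Erg bind a GGAA core and are expressed in EC. The promoters of a few genes named in the text are shown, all of which hold a marked match. Each is the 250 bases before the RefSeq start (GRCm38.p6), 5′ to 3′ on the gene's strand, with CAGGAAG or its reverse complement CTTCCTG in capitals, and for Tnfaip6, a hyaluronan-binding protein made by FAP, the AP-1 motif TGANTCA.
Robo4, chr9:37401722-37401971, plus strand: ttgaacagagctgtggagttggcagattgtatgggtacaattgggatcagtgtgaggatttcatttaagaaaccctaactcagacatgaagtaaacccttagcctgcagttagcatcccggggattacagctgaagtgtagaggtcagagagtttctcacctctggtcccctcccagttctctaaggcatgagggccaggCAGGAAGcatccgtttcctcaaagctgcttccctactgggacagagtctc
Notch4, chr17:34564045-34564294, plus strand: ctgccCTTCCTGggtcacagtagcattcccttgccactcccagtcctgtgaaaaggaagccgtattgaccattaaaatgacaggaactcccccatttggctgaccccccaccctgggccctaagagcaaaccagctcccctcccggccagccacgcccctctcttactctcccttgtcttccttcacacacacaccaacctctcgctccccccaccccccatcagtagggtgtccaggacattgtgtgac
Hhex, chr19:37434591-37434840, plus strand: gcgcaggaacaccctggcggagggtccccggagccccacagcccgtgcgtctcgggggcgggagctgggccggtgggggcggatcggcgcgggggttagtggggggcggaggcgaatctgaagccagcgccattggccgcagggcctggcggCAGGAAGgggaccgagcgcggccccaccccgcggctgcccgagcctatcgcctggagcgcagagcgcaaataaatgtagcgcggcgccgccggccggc
Apln, chrX:48034854-48035103, minus strand: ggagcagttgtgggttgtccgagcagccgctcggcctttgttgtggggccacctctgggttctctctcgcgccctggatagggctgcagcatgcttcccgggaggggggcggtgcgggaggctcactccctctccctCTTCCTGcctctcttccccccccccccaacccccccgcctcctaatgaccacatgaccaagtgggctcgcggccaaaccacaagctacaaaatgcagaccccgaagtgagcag
Tnfaip6, chr2:52037863-52038112, plus strand: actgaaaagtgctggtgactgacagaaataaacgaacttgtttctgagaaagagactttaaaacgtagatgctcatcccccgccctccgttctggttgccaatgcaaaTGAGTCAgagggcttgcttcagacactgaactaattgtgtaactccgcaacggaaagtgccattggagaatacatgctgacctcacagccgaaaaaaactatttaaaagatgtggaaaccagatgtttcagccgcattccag
Robo4 encodes a guidance receptor that stabilises vessels, Notch4 an endothelial Notch receptor and Apln the secreted peptide apelin. Searched on both strands of the 250 bases, CAGGAAG was found for 12.6% of the genes higher in EC (193 of 1535), 8.31% of those higher in FAP (131 of 1576), 9.65% of all genes tested (914 of 9475) and 10.5% of all 27025 RefSeq promoters. Here higher means called with a log2 fold change beyond 1, and shares are over genes with a promoter in the table. TGANTCA was found for 6.58% of the same genes higher in EC, 5.27% of those higher in FAP and 4.28% of all tested, against 6.87% of all promoters. The promoters shown are no fair sample, since of 136 named genes with a promoter 17 held CAGGAAG and 9 held TGANTCA. Apln, at a log2 fold change of -0.93, is not among the genes counted here as higher in EC. A match is a run of letters and not evidence of binding.

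Genes that distinguish vessel types were higher in EC across the arterial, venous and capillary lists. Of 8 arterial genes 7 were higher in EC (median -6.94), of 7 venous genes 6 (median -3.06) and of 9 capillary lipid transport genes 8 (median -6.86). The arterial gap junction genes Gja5 (-8.17 ± 0.41) and Gja4 (-8.10 ± 0.48) and the semaphorin Sema3g (-7.66 ± 0.37) were among them. Vwf, the clotting factor carrier stored by venous and larger vessels, stood at 0.941, 3.45 and 13.3 CPM in FAP and 517, 809 and 1431 in EC (-8.04 ± 0.42). Fabp4, a fatty acid binding protein of capillaries, stood at 2039, 5026 and 6844 CPM in EC and 2.97, 5.99 and 66.3 in FAP (-9.11 ± 0.64), FAP library 1 being the high one. Cd36, the fatty acid translocase, reached -7.88 ± 0.59, with EC library 6 (836 CPM) far below the other EC libraries. Of 4 lymphatic genes tested, Flt4, the VEGF-C receptor that blood endothelium also carries, reached -7.35 ± 0.27. Pdpn, which marks lymphatic endothelium and also activated fibroblasts, was higher in FAP at 286, 412 and 458 CPM against 16.9, 39.6 and 176 (3.26 ± 0.43, adjusted p = 0.000124).

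Lists of sprouting, vascular tone and leukocyte capture were read next. The tip cell list held 8 of 10 higher in EC, among them Angpt2 and Plvap. Angpt2, the destabilising angiopoietin released by activated endothelium, stood at 55.1, 75.0 and 176 CPM in EC and 0.141, 1.01 and 1.42 in FAP (-6.48 ± 0.34). Its EC median was 96.3% of that in 2 libraries of sorted pericytes of day 2, and the part of pericytes was not tested. Of 10 vascular tone and coagulation genes, 5 were higher in EC and 3 in FAP. The nitric oxide synthase Nos3 (-9.03 ± 0.50) and endothelin 1, Edn1 (-4.27 ± 0.31), were higher in EC, and the prostacyclin synthase Ptgis was higher in FAP (3.46 ± 0.47), with overlap of the groups. Of 8 leukocyte adhesion genes, 6 were higher in EC, including P-selectin, Selp, at 88.5, 271 and 1042 CPM against 0, 0.645 and 13.3 in FAP (-7.48 ± 0.43). E-selectin, Sele, reached -4.22 ± 0.45 with overlap. Icam1 overlapped too (-1.02 ± 0.34, adjusted p = 0.0272), and its call was lost without pair 2 (adjusted p = 0.0759). The exception was Vcam1, the ligand of leukocyte VLA-4 integrin, which was higher in FAP in every library, at 257, 356 and 556 CPM against 60.8, 114 and 208 (1.71 ± 0.24, adjusted p = 0.000172).

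**Figure D2:**
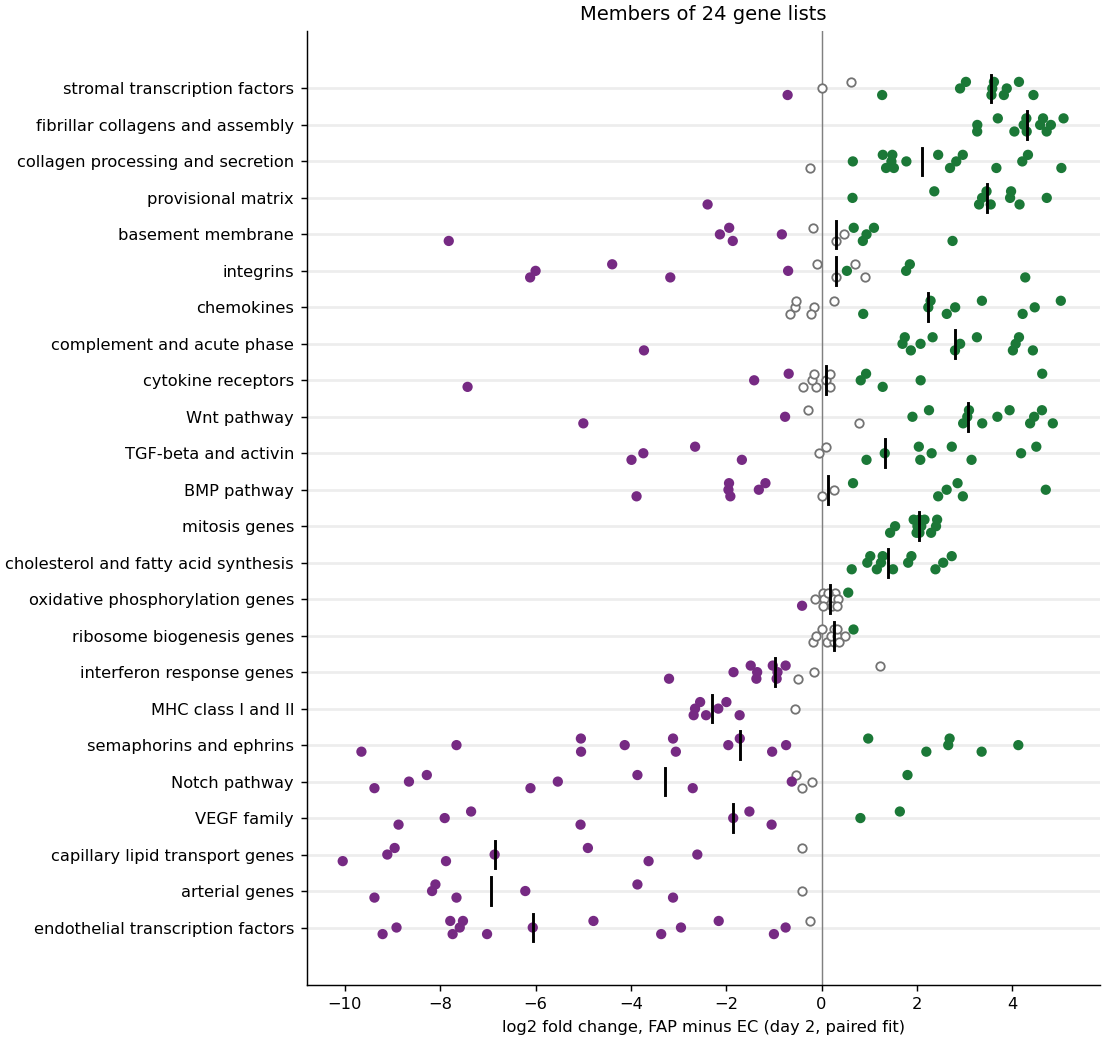
Log2 fold change (FAP minus EC) of every tested member of 24 gene lists at day 2. Each point is 1 gene, filled where called (green higher in FAP, purple higher in EC) and open where not called, and the black bar is the median of the list. Fibrillar collagens (median 4.30) and arterial genes (median -6.94) lie at opposite ends, and basement membrane genes (median 0.31) lie on both sides.

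Matrix genes were higher in FAP. All 12 fibrillar collagen and assembly genes were higher in FAP (median 4.30), as were 10 of 11 provisional matrix genes and 15 of 16 collagen processing genes (median 2.11). Col1a1 stood at 9106, 13838 and 17946 CPM in FAP and 72.5, 560 and 7870 in EC, where the 7870 belonged to library 6 (4.72 ± 0.82, adjusted p = 0.000743). Loxl1 (5.03 ± 0.92) and Lox (4.21 ± 0.70), which cross-link elastin and collagen, and Fbn1, the microfibril protein fibrillin 1 (4.08 ± 0.62), were higher too. Of the wound matrix, the hyaluronan synthases Has1 (4.73 ± 0.66) and Has2 (3.98 ± 0.74), Tnfaip6, whose promoter is printed above (3.96 ± 0.40), and fibronectin, Fn1 (3.37 ± 0.34), were higher in FAP without overlap. Tnfaip6 stood at 253, 492 and 1724 CPM in FAP and 16.1, 43.2 and 55.7 in EC. Thrombospondin 1, Thbs1, differed little, at 312, 452 and 1939 CPM in FAP and 144, 438 and 1158 in EC (0.65 ± 0.23, adjusted p = 0.0335), and its call was lost without pair 6 (adjusted p = 0.0508). Spp1, osteopontin, a cytokine of wound macrophages, was the wound matrix gene higher in EC (-2.39 ± 0.45), and its EC median was 3.08% of that in inflammatory cells.

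Basement membrane genes divided by chain. Of 13, FAP were higher for 5 and EC for 5. Laminin alpha 5, Lama5, the vessel chain, stood at 267, 340 and 791 CPM in EC and 0.566, 1.26 and 3.96 in FAP (-7.82 ± 0.29, adjusted p = 6.73e-08). Laminin alpha 2, Lama2, the chain of the muscle fibre sheath, was higher in FAP at 174, 346 and 414 CPM against 27.8, 40.5 and 109 (2.75 ± 0.29, adjusted p = 2.95e-05). Neither laminin showed overlap. The collagen IV genes Col4a1 (-1.86 ± 0.18) and Col4a2 (-1.94 ± 0.23) and Col15a1 (-2.13 ± 0.18), a collagen that links basement membranes to the stroma, were higher in EC. Perlecan, Hspg2 (-0.17 ± 0.25, adjusted p = 0.587), and Lama4 (0.31 ± 0.18, adjusted p = 0.166) did not pass the test. Of 16 proteases and inhibitors, 11 were higher in FAP, among them Mmp3 (4.50 ± 0.83), Mmp2 (4.47 ± 0.61) and the inhibitor Timp1 (3.53 ± 0.58), and 4 in EC, led by the membrane protease Mmp15 (-6.75 ± 0.25). Integrins split, with the laminin receptor Itga6 (-6.0 ± 0.27) higher in EC and the collagen receptor Itga11 (4.27 ± 0.67) higher in FAP.

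More chemokine and complement genes were called higher in FAP than in EC. Of 15 chemokines 9 were higher in FAP and none in EC (median 2.24), and 12 of 13 complement and acute phase genes were higher in FAP (median 2.80). The neutrophil attractant Cxcl5 (4.47 ± 0.99), the eotaxin Ccl11 (3.36 ± 0.36) and the monocyte attractants Ccl7 (2.80 ± 0.40) and Ccl2 (2.29 ± 0.34) were among them. Ccl2 stood at 172, 390 and 808 CPM in FAP and 56.3, 80.2 and 120 in EC, without overlap. C3, the central complement protein, stood at 1385, 1787 and 2481 CPM in FAP and 40.5, 101 and 433 in EC (4.14 ± 0.47, adjusted p = 5.36e-05). The membrane inhibitor Cd59a was the complement gene higher in EC (-3.73 ± 0.41). Cxcl12, the ligand of Cxcr4 that retains and guides leukocytes and endothelium, did not pass the test at 1445, 1626 and 2113 CPM in FAP and 1169, 2010 and 2832 in EC (-0.15 ± 0.21, adjusted p = 0.562).

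Cytokines went both ways, with 4 of 13 higher in FAP and 4 in EC. Il33 (chr19:29925114-29960718, plus strand), an alarmin released on damage, stood at 236, 407 and 640 CPM in FAP and 2.96, 17.2 and 123 in EC. Its log2 fold change was 4.60 ± 0.88 (adjusted p = 0.00138), all FAP libraries lay above all EC libraries, and the 123 CPM were in EC library 6. Csf1, the growth factor of macrophages, stood at 880, 1141 and 1627 CPM in FAP and 80.4, 187 and 519 in EC (2.55 ± 0.36). Lif, a cytokine of the interleukin 6 family, was higher in FAP (2.89 ± 0.45). Il6 itself did not pass the test, at 72.7, 156 and 794 CPM in FAP and 21.8, 104 and 477 in EC (0.71 ± 0.28, adjusted p = 0.0585), and passed without pair 2 (0.98, adjusted p = 0.0038). Il1b (-4.27 ± 0.53) and Tnf (-3.98 ± 0.35), cytokines of activated macrophages, were higher in EC. The EC median of Il1b was 17.9% and that of Tnf 9.28% of the median in inflammatory cells, beside 3.91% for the leukocyte, 3.51% for the macrophage, 34.6% for the neutrophil and 15.2% for the lymphocyte marker list. The part of leukocytes in the EC gate was not tested.

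Antigen presentation and interferon genes leaned toward EC. Of 8 MHC genes 7 were higher in EC and none in FAP. Of 12 interferon response genes 9 were higher in EC (median -0.98), and 3 when the libraries were not paired. H2-K1, a class I heavy chain, stood at 832, 926 and 1444 CPM in EC and 184, 305 and 582 in FAP (-1.72 ± 0.20, adjusted p = 5.6e-05). Rsad2, the antiviral protein viperin, reached -3.20 ± 0.18 at 55.2, 128 and 387 CPM against 4.66, 14.2 and 37.9. Neither gene overlapped between the groups. Cd74, the class II invariant chain, was higher in EC (-2.68 ± 0.22). Its EC median was 3.82% of that in inflammatory cells, beside 3.91% for the leukocyte marker list. Cd74 and the class II genes H2-Aa, H2-Ab1 and H2-Eb1 had the largest differences among called MHC members of at least 10 CPM. The part of leukocytes in these genes was not tested.

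Ligands and receptors were then read as 96 listed pairs, of which 87 had both genes tested and 67 had both called. The ligand was higher in FAP and the receptor in EC for 18 pairs, the reverse held for 11, both were higher in FAP for 18 and both in EC for 20. Without pair 6 these were 17, 11, 18 and 20, in pairs 1 to 3 alone 15, 11, 17 and 18, and in pairs 4 to 6 alone 14, 8, 17 and 19. Of the 80 ligands 39 were higher in FAP and 31 in EC, and of the 72 receptors 28 and 35, shares to be read beside 27.8% and 26.3% of all genes. RNA of both partners does not show that they met.

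**Figure D3:**
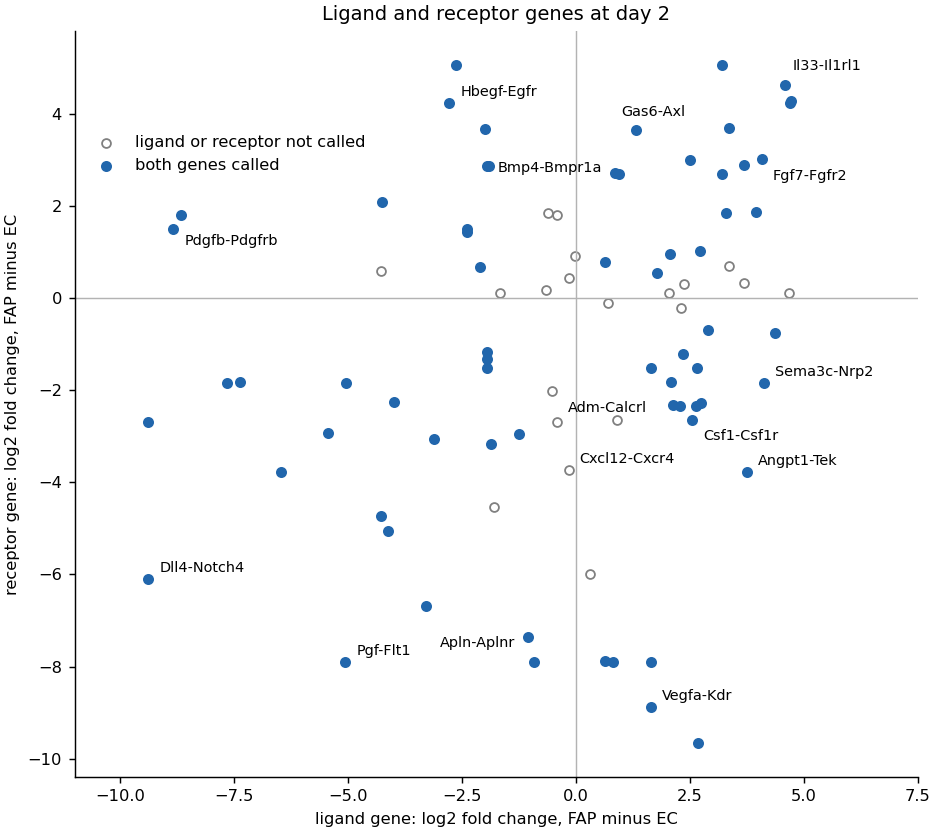
Log2 fold change (FAP minus EC) of the receptor gene against that of the ligand gene for the 87 pairs with both tested. Each point is 1 pair, filled where both genes were called. The lower right part holds ligands higher in FAP with receptors higher in EC, such as Angpt1 (3.76) with Tek (-3.77).

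Of the pairs that ran from FAP to EC, the angiopoietin pair divided without overlap of either gene. Angpt1 (chr15:42424723-42676977, minus strand), which stabilises vessels through the receptor Tie2, stood at 19.6, 26.2 and 73.4 CPM in FAP and 0.444, 1.46 and 7.22 in EC. Its log2 fold change was 3.76 ± 0.62 (adjusted p = 0.000531) without overlap. Tek (chr4:94739289-94874976, plus strand), which encodes Tie2, stood at 21.6, 36.1 and 77.1 CPM in FAP and 466, 532 and 629 in EC (-3.77 ± 0.26, adjusted p = 1.56e-06). Every EC library lay above every FAP library, while FAP kept a measurable level. Vegfa (chr17:46016993-46032369, minus strand), the main angiogenic factor, was higher in FAP by 1.64 ± 0.33 (adjusted p = 0.00171), at 42.7, 46.3 and 92.6 CPM against 6.24, 21.8 and 51.4, and the groups overlapped. Its receptor Kdr (chr5:75932827-75978458, minus strand) stood at 585, 796 and 1013 CPM in EC and 0, 1.41 and 16.8 in FAP (-8.87 ± 0.76), the 16.8 being FAP library 1.

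Other pairs ran the same way. Adm, the vasodilator adrenomedullin, stood at 83.4, 98.0 and 119 CPM in FAP and 16.6, 20.9 and 33.0 in EC (2.12 ± 0.16, adjusted p = 3.71e-06), and its receptor Calcrl was higher in EC (-2.32 ± 0.29). Sema3c, a secreted semaphorin (4.13 ± 0.66), faced its receptor Nrp2 (-1.85 ± 0.15). Cxcl1, a neutrophil attractant (2.63 ± 0.25), faced Ackr1, which carries chemokines across venules (-2.34 ± 0.32). Neither Adm, Calcrl, Sema3c nor Nrp2 overlapped between the groups. Hgf, the ligand of Met, was low in both (3.25, 5.97 and 31.2 CPM against 0.681, 1.26 and 7.31).

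The 11 pairs from EC to FAP included the following. Pdgfb, which recruits mural cells, stood at 243, 290 and 522 CPM in EC and 0, 0.609 and 2.15 in FAP (-8.83 ± 0.49, adjusted p = 4.04e-07). Its receptor Pdgfrb stood at 447, 541 and 799 CPM in FAP and 51.0, 246 and 360 in EC (1.5 ± 0.36, adjusted p = 0.00486). Neither overlapped, but pericytes carry Pdgfrb too, and the pericyte markers summed to 166 to 2682 CPM in EC. Hbegf, a membrane-bound growth factor, stood at 23.5, 83.3 and 271 CPM in EC and 4.83, 10.6 and 19.8 in FAP (-2.78 ± 0.27), and its receptor Egfr was higher in FAP at 235, 335 and 484 CPM against 3.56, 18.1 and 127 (4.22 ± 0.62). The EC median of Hbegf was 641% of that in inflammatory cells. Bmp4, a bone morphogenetic protein, was higher in EC (-1.95 ± 0.26) and its receptor Bmpr1a in FAP (2.85 ± 0.31). The Notch ligand Jag2 was higher in EC (-8.66 ± 0.49) and the receptor Notch2 in FAP (1.80 ± 0.19). Il1b, described above with the leukocyte markers, was paired with its receptor Il1r1, higher in FAP (2.08 ± 0.21).

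Within FAP, Il33 and its receptor Il1rl1 were both higher. Il1rl1 (chr1:40429570-40465415, plus strand) stood at 8.82, 22.2 and 115 CPM in FAP and at most 3.65 in EC (4.63 ± 0.67, adjusted p = 0.000234). Gas6 (1.31 ± 0.19) and its receptor Axl, which clears dying cells (3.64 ± 0.46), and Fgf7 (4.08 ± 0.70) with Fgfr2 (3.02 ± 0.44) also lay together in FAP. Within EC, Pgf (chr12:85166635-85177790, minus strand), placental growth factor, stood at 26.2, 118 and 139 CPM against 1.06, 1.73 and 7.31 in FAP (-5.06 ± 0.41, adjusted p = 4.97e-06), with its receptor Flt1 at -7.91 ± 0.46. The 26.2 CPM were EC library 6, below the other 5 EC libraries, and the groups did not overlap. Apln (chrX:48025146-48034853, minus strand) was high in both populations, at 49.1, 92.1 and 117 CPM in FAP and 108, 160 and 193 in EC (-0.93 ± 0.19, adjusted p = 0.00173), while its receptor Aplnr was endothelial (-7.90 ± 0.37). In pairs 1 to 3 alone the Apln difference was -0.65 and did not pass (adjusted p = 0.052).

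**Figure D4:**
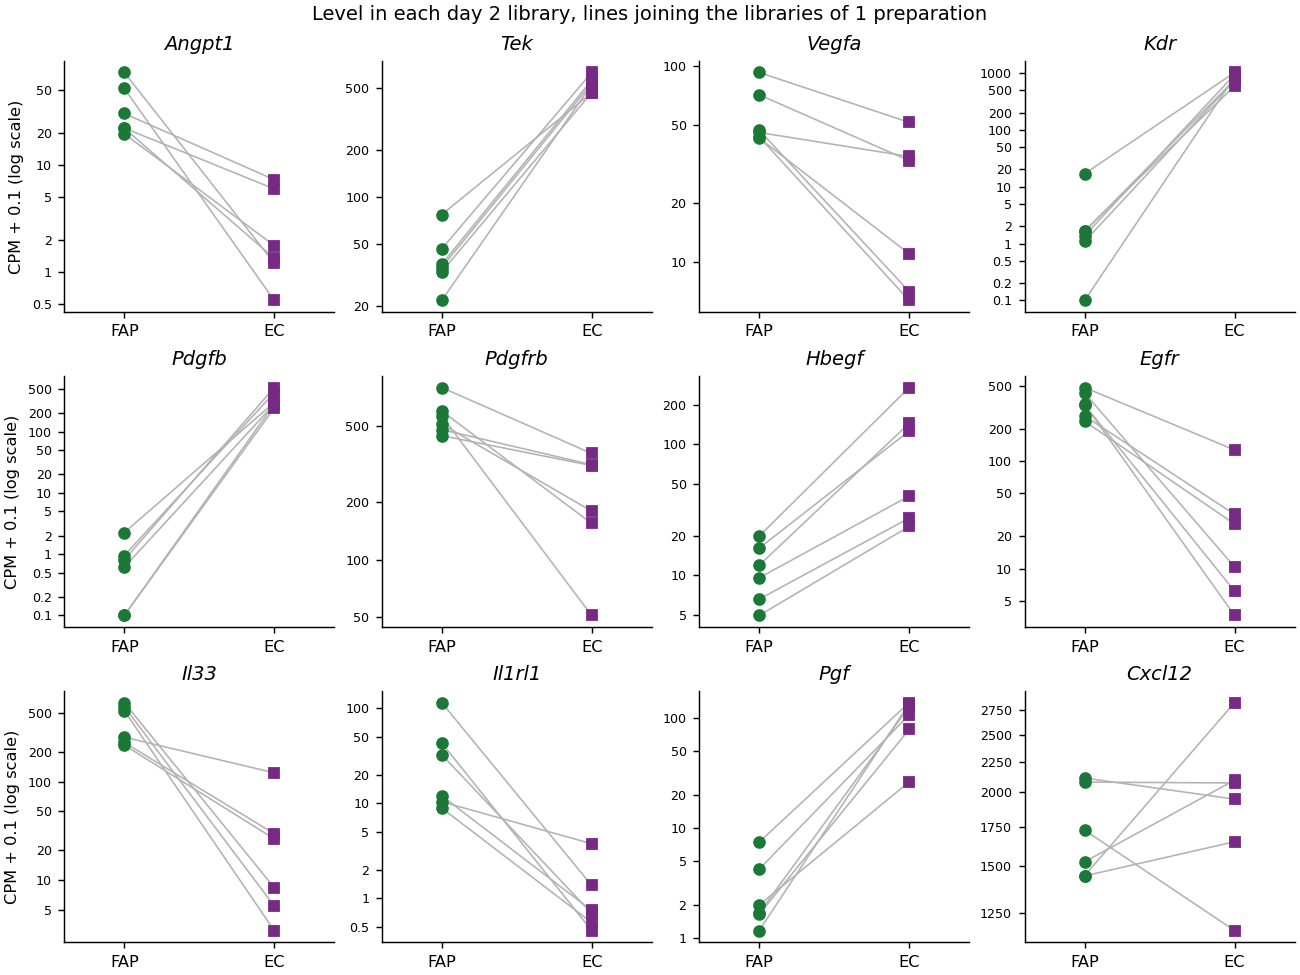
Level of 12 ligand and receptor genes in each day 2 library (CPM + 0.1, log scale), with grey lines joining the FAP and EC library of 1 preparation. The lines of Angpt1, Il33 and Egfr fall from FAP to EC and those of Tek, Pdgfb and Hbegf rise in all 6 pairs, whereas those of Cxcl12 cross.

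Pathway components were read by list, and the lists did not share 1 direction. Of 12 Notch genes 8 were higher in EC and 1 in FAP (median -3.28). The ligands Dll4 (-9.38 ± 0.44) and Jag2 (-8.66 ± 0.49), the target Nrarp (-8.28 ± 0.43) and the receptors Notch4 (-6.11 ± 0.24) and Notch1 (-2.70 ± 0.24) were higher in EC. Notch2 was the member higher in FAP, at 69.3, 105 and 180 CPM against 14.6, 30.7 and 60.8 (1.80 ± 0.19, adjusted p = 3.18e-05), without overlap. The ligand Jag1 did not pass the test (-0.41 ± 0.25, adjusted p = 0.183). Of 16 Wnt genes 12 were higher in FAP and 2 in EC (median 3.08), led by the secreted antagonist Sfrp2 (4.85 ± 0.99) and the ligand Wnt2 (4.38 ± 0.64), while Fzd4, a receptor of retinal and other vessels, was higher in EC (-0.77 ± 0.17).

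In the TGF-beta and activin list 9 of 15 were higher in FAP and 4 in EC. Follistatin, Fst, which binds activins, stood at 48.1, 73.8 and 108 CPM in FAP and 0.743, 3.81 and 15.5 in EC (4.19 ± 0.63). The activin subunit gene Inhbb stood at 22.6, 55.8 and 183 CPM in EC and 1.76, 4.84 and 6.00 in FAP (-3.99 ± 0.42, adjusted p = 2.94e-05). Neither overlapped. Tgfb1 was higher in EC (-1.67 ± 0.17), and Tgfbr2, the receptor kinase, did not pass the test at 264, 319 and 561 CPM against 246, 332 and 424 (0.10 ± 0.19, adjusted p = 0.683). The BMP list gave 6 of 14 in each direction, with the receptor Bmpr1a (2.85 ± 0.31) higher in FAP and the target Id1 higher in EC, at 104, 181 and 289 CPM against 4.72, 10.8 and 23.9 (-3.88 ± 0.25, adjusted p = 1.17e-06). Of 9 FGF genes 6 were higher in FAP, including the receptor Fgfr1 (2.69 ± 0.30), and Igf1, a growth factor for regenerating fibres, was higher in FAP as well (2.30 ± 0.23).

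Cell division genes were higher in FAP. All 12 mitosis genes (median 2.05) and 7 of 10 S phase genes (median 0.80) were called, none toward EC. For S phase the count was 8 of 10 in pairs 1 to 3 alone and 2 of 10 in pairs 4 to 6 alone. Ccnb1, cyclin B1, stood at 35.3, 52.2 and 75.5 CPM in FAP and 4.10, 10.3 and 20.4 in EC (2.4 ± 0.37, adjusted p = 0.00032), without overlap. Gins2, a subunit of the replication helicase, reached 2.02 ± 0.32. Mki67, the proliferation antigen, was higher by 1.44 ± 0.25 (adjusted p = 0.000816) with overlap of the groups at 66.1, 162 and 498 CPM against 31.9, 49.7 and 118. Pcna, the replication clamp, did not pass the test (0.01 ± 0.15, adjusted p = 0.96).

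Metabolic genes were read in lists of lipid synthesis and energy supply. All 12 cholesterol and fatty acid synthesis genes were higher in FAP (median 1.39), among them the desaturase Scd1 (2.73 ± 0.33), the sterol enzymes Sqle (2.55 ± 0.36) and Hmgcs1 (1.89 ± 0.25), and Fasn (2.39 ± 0.38). Scd1 stood at 222, 298 and 370 CPM in FAP and 18.5, 45.4 and 136 in EC, without overlap. Of 14 glycolysis genes 4 were higher in FAP and 3 in EC, and the hexokinases went opposite ways. Hk2 was higher in FAP, at 66.0, 162 and 477 CPM against 10.1, 13.1 and 28.9 (3.54 ± 0.46, adjusted p = 0.000118), and Hk1 in EC, at 194, 285 and 350 CPM against 95.3, 120 and 180 (-1.10 ± 0.15, adjusted p = 0.000165). Of 12 oxidative phosphorylation genes 1 was higher in FAP and 1 in EC (3 and 0 without pair 6), and of 12 ribosome biogenesis genes 1 and 0 (6 and 0 without pair 6).

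The day 2 difference was next tested against the difference in undamaged muscle (3 pairs), with 13797 genes tested. It had changed for 723 genes (5.24%), 280 toward FAP (2.03%) and 443 toward EC (3.21%). The count depended on the few undamaged pairs, at 369 without undamaged pair 2, 471 without pair 1 and 520 without pair 3. Levels below are the 3 undamaged libraries and the mean ± SD of the 6 day 2 libraries, and a change within a population was not tested on its own. Of 14 stromal markers 3 changed toward EC and none toward FAP (median move -2.24), and of 16 endothelial markers 1 changed toward EC and none toward FAP (median -1.62). None of the 15 endothelial transcription factors was called (median 0.15), which with 3 undamaged pairs does not show that they were unchanged.

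Pgf changed sides between the populations. In undamaged muscle it stood at 56.0, 44.5 and 40.6 CPM in FAP and 7.52, 7.46 and 11.1 in EC. At day 2 it was 2.83 ± 2.31 CPM (SD, n = 6) in FAP and 103 ± 43.9 CPM in EC. The difference moved by -7.55 ± 0.63 on the log2 scale (adjusted p = 6.92e-05; -7.85 without pair 6), and the groups lay in opposite order without overlap on both days. Col15a1 did likewise (-3.91 ± 0.33), at 1590, 1191 and 1018 CPM and then 285 ± 41.7 in FAP, and 594, 285 and 304 CPM and then 1297 ± 296 in EC. Bmp2 moved by -4.64 ± 0.38 and Inhbb by -4.97 ± 0.61, both higher in EC at day 2, whereas the undamaged difference of Inhbb had not passed the test (0.95 ± 0.45, adjusted p = 0.12).

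Apln moved the other way. Undamaged FAP held 1.19, 0.495 and 0 CPM and undamaged EC 35.0, 19.8 and 27.5. At day 2 FAP held 84.7 ± 27.3 CPM and EC 160 ± 32.1 CPM, and the difference moved by 4.62 ± 0.54 toward FAP (adjusted p = 0.000458). Acta2, smooth muscle actin, moved by 4.67 ± 0.60. It stood at 11.7, 23.3 and 15.2 CPM in undamaged FAP and 162 ± 51.8 at day 2, and at 300, 445 and 908 CPM and then 213 ± 128 in EC. The EC median at day 2 was 1.32% of that in pericytes. Vcam1 changed sides (3.42 ± 0.44, adjusted p = 0.000785), from 55.2, 47.3 and 67.1 CPM in undamaged FAP and 130, 286 and 180 in EC to 384 ± 128 and 128 ± 62.6. Cxcl12, which did not pass the test at day 2, had been higher in EC before, at 1563, 2022 and 1355 CPM against 397, 314 and 264 in FAP (difference moved by 2.15 ± 0.37, adjusted p = 0.00461). Atoh8, a helix-loop-helix factor (3.78 ± 0.34), and Cyp26b1, which degrades retinoic acid (3.8 ± 0.66), also moved toward FAP.

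**Figure D5:**
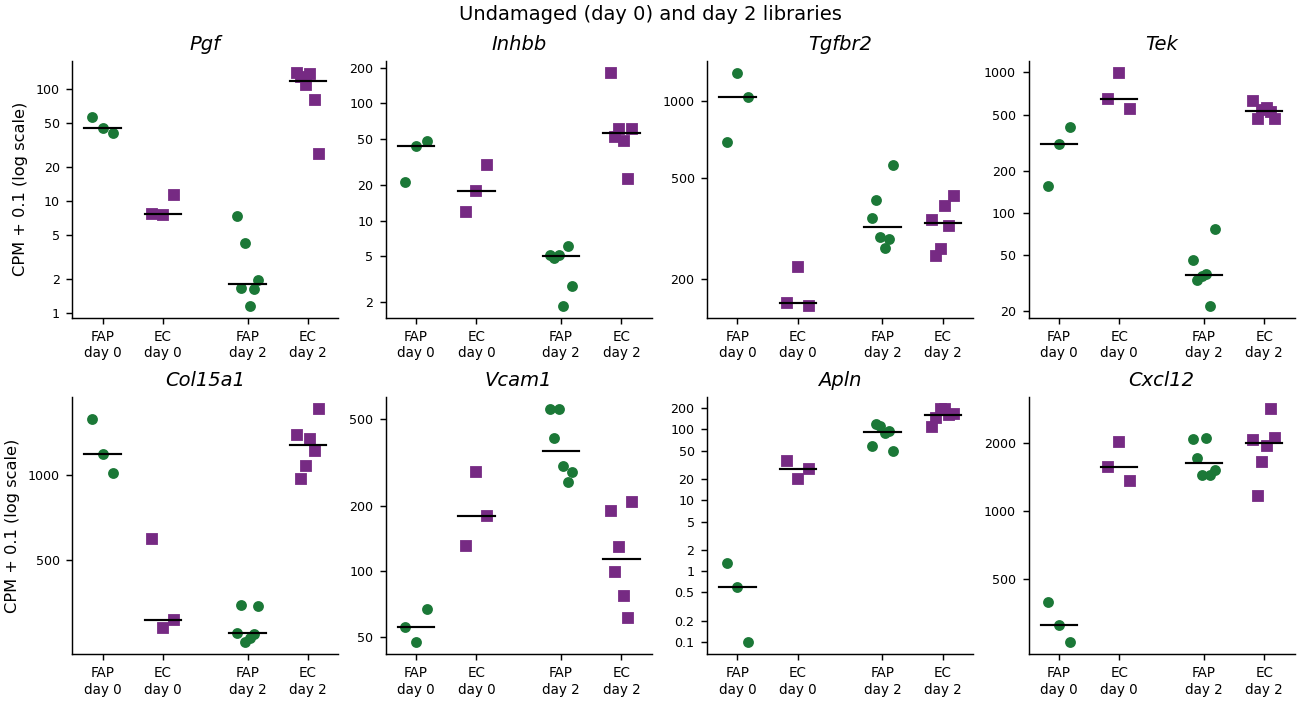
Level (CPM + 0.1, log scale) of 8 genes in undamaged and day 2 libraries of FAP and EC. Each point is 1 library and each bar a median, with 3 libraries a population before injury and 6 at day 2. Pgf and Col15a1 exchange places between the populations, and Apln and Cxcl12 lie below the EC libraries in undamaged FAP and near them in day 2 FAP.

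Of 13 basement membrane genes 10 moved toward EC (4 without undamaged pair 2) and none toward FAP. Lama2 stood in FAP at 945, 1321 and 1921 CPM and then 303 ± 89.7 (difference moved by -3.16 ± 0.53), and Nid1, which joins laminin to collagen IV, at 2232, 3596 and 4117 CPM and then 1003 ± 290 (-2.47 ± 0.40). Both calls held without undamaged pair 2, and those of Lamc1 (-1.87 ± 0.41), Col4a1 (-1.68 ± 0.35) and Col4a2 (-1.43 ± 0.38) did not, the last not without day 2 pair 6 either (adjusted p = 0.0563). Of 10 S phase genes 7 moved toward FAP and none toward EC. Mcm5, a replication helicase subunit, was higher in undamaged EC at 20.5, 12.9 and 16 CPM against 7.58, 6.09 and 3.57 in FAP, and at day 2 stood at 159 ± 47.3 in FAP and 92.6 ± 47.4 in EC (2.43 ± 0.47). Of 12 mitosis genes 2 moved toward FAP, Cenpa (3.44 ± 0.46) and Cdc20 (3.49 ± 0.58), and 6 without pair 6.

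Several genes that mark resting FAP lost part of their lead. Pi16, a marker of adventitial fibroblasts, stood at 2316, 2813 and 2228 CPM in undamaged FAP and 188 ± 81.8 at day 2 (difference moved by -4.43 ± 0.55), and gelsolin, Gsn, at 46898, 49714 and 42275 CPM and then 2912 ± 735 (-3.60 ± 0.66). Without pair 6 these were -4.14 and -3.36. The stromal sum in EC was 1.43% to 32.1% of paired FAP at day 2 and 0.774% to 2.90% in undamaged pairs, and its part in these changes was not tested. Of 14 complement and acute phase genes 5 moved toward EC and 1 toward FAP (3 and 0 without undamaged pair 2), including C3 (-3.72 ± 0.85) and its regulator Serping1 (-2.59 ± 0.46). Of 15 chemokines 4 moved toward EC and 2 toward FAP (2 and 2 without undamaged pair 2). Ccl2 stood at 46.3, 111 and 108 CPM and then 441 ± 231 in FAP and at 1.38, 1.86 and 4.63 CPM and then 86.4 ± 26.7 in EC (-2.91 ± 0.57, adjusted p = 0.0099, and 0.0665 without undamaged pair 2). Gpnmb, a gene of phagocytic macrophages, moved by -6.14 ± 0.57, with 3.71, 4.55 and 2.13 CPM in undamaged EC and 190 ± 97.3 at day 2, and Tgfbi, a matrix protein that macrophages also make, by -5.14 ± 0.42. The EC median at day 2 was 3.60% of that in inflammatory cells for Gpnmb and 5.86% for Tgfbi, and leukocyte markers were 3.91%. The part of leukocytes in these changes was not tested.

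Interferon and further signalling genes were read in the same test. Of 12 interferon genes 4 moved toward FAP and none toward EC, and none of the 12 moved without undamaged pair 2. Isg15, a ubiquitin-like antiviral protein, stood in FAP at 13.2, 7.47 and 15.3 CPM and then 71.7 ± 62.0. Tek moved by -2.42 ± 0.45, with 156, 310 and 410 CPM and then 40.8 ± 18.9 in FAP, and 645, 994 and 544 CPM and then 533 ± 64.0 in EC. Tgfbr2 moved by -2.41 ± 0.34, at 693, 1296 and 1044 CPM and then 352 ± 111 in FAP against 160, 222 and 156 and then 333 ± 77.3 in EC. Notch2 (-1.86 ± 0.39) moved toward EC and Gas6 (1.87 ± 0.36) toward FAP. Kcp, a BMP modulator, stood in FAP at 92.8, 119 and 91.5 CPM and then 13.8 ± 5.43, and undamaged EC held 15 counts in 3 libraries.

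The same difference was read at the neighbouring days. The stromal sum in EC was 64.9% of paired FAP in 1 of the 3 day 1 pairs (2.57% and 1.14% in the others) and 82.1% in 1 of the 5 day 3 pairs (0.745% to 1.66% in the others). The median paired log2 difference of Pgf was 2.42 undamaged (3 pairs), -5.62 at day 1 (3 pairs), -4.78 at day 2 (6 pairs) and -1.94 at day 3 (5 pairs). That of Apln went from -4.05 through -2.89 and -0.91 to -0.54, and that of Cxcl12 from -2.34 through -1.59 and -0.17 to 0.26. Vcam1 was at -1.39, 2.04, 1.88 and 0.43, and Inhbb at 0.77, -4.32, -3.82 and -2.32. Mki67 stood at 0.40, 4.52, 1.03 and 0.73, with the widest median at day 1. Tgfbr2 stood at 2.53, 0.14, 0.02 and 0.60. Without the pair with the highest stromal sum in EC of each of days 1, 2 and 3, a choice made after seeing the data, Pgf was at -6.23, -5.0 and -1.96 on those days, Apln at -3.35, -0.89 and -0.60, and Cxcl12 at -1.96, 0.01 and 0.10. Vcam1 was then at 2.21, 1.92 and 0.50, Inhbb at -4.39, -3.51 and -2.44, Mki67 at 4.94, 1.06 and 0.99, and Tgfbr2 at 0.18, 0.01 and 0.72. These medians are descriptions without a test, and the differences between days 1, 2 and 3 were not tested.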

How the data were processed

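Each table the authors deposited holds raw read counts by gene symbol for 1 population. bcl2fastq, Bowtie, STAR and the build mm10 are named in the submitters' processing notes, per the labels. Tool versions and roles, annotation, counting program and strand setting were not given in the sources used here, so overlapping, antisense and near-identical genes are uncertain. Per the labels, RNA was taken with RNAzol, libraries were stranded mRNA (NEBnext Ultra II) and reads were paired ends of 43 bases. Of 178 count columns 47 were used and 131 were not. Reads in no feature (3.82% to 24.1%) and ambiguous reads (0.427% to 1.01%) stayed out of totals and tests. Depth limits counting error alone, since PCR copies count as reads.

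Genes were tested in R 4.3.3 with the quasi-likelihood F test of edgeR 4.0.16 (filterByExpr by population, TMM scaling), with preparation as a block and Benjamini-Hochberg adjustment over all genes tested. Pairing came from replicate numbers, which match the preparation codes in the labels. Deviations of same-numbered libraries correlated at 0.105 to 0.618 (6 of 6 above 0.1). The codes of pairs 2 and 3 contain ntx1 although the titles give day 2. Undamaged libraries were paired by code (4D, R52-5 and R52_19) and compared with day 2 by an interaction term. A duplicate check over 30 library pairs found none at sampling noise (chi-square per gene at least 10.3). The 54 lists held 599 genes, of which 533 were tested and 62 were under the filter. Members, lists and tests were chosen with earlier results of these data known.

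Named genes were, per list, up to 4 called members with the largest absolute log2 fold change (at least 10 CPM) and up to 2 with the smallest. To these came the 12 highest and 12 lowest genes over all (at least 50 CPM, same sign in 6 of 6 pairs), the 10 highest and 10 lowest interaction genes, and ligand and receptor pairs with both called. The text gives part of them, and some genes that are a list's exception were added after their values were seen. A few selected genes are not reported here. Promoters are from RefSeq (GRCm38.p6), and coordinates of genes from GENCODE M21 on the same build. Alternatives were RLE scaling, no filter, no block, DESeq2 1.42.0, a test against a log2 fold change of 1, subsets by preparation code, and leaving out each pair in turn. List counts without pair 6 were added after seeing the data. The steps were tested on simulated data, and figures were drawn with matplotlib 3.10.9.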

Additional observations from a re-analysis of the deposited data

Results flagged for a closer look

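In 17 of 378 groups of 6 day 2 libraries (4.50%), 1 library lay far from the other 5 by Dixon's criterion, and chance alone is set to give about 1 in 20. FAP library 1 was the high library for 9 genes. Of these, 7 are endothelial, namely Pecam1 (41.0 CPM), Cdh5 (40.4), Kdr (16.8), Sox17 (2.28), Dll4 (0.805), Fabp4 (66.3) and Podxl (19.1). The others are the immune GTPase gene Gimap1 (0.335) and the heat shock gene Hspa1a (410). Gimap1 was among the 12 genes with the highest fold change toward EC and had no counts in the other 5 FAP libraries. The same library was the low one for Axl (684 CPM). FAP library 2, the shallowest, was low for Bmp4 (3.94) and Notch1 (40.1). EC library 1 was high for Lama5 (791) and Lifr (199). EC library 6, with the highest stromal marker sum, was low for Cd36 (836) and Pgf (26.2) and high for Hk2 (28.9). Causes were not tested.

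For 50 of the 189 genes followed singly, the FAP minus EC difference at day 2 was not the same as in undamaged muscle (edgeR interaction test, adjusted p under 0.05). The share over all 13797 genes tested was 5.24%, and the 189 include genes chosen as the highest or lowest of this same test, so the count is partly set by the choice and nothing is read from it. The values that follow are the day 2 minus undamaged change of that difference in log2, positive toward FAP. Toward FAP moved the angiogenic and perivascular genes Acta2 (4.67), Apln (4.62), Ednrb (2.22), Vegfc (2.16), Nrp2 (1.68) and Nrp1 (1.45). So did the transcription factors Atoh8 (3.78) and Snai2 (2.18), the retinoic acid enzyme Cyp26b1 (3.8), and the signalling genes Vcam1 (3.42), Cxcl12 (2.15), Il1r1 (1.91) and Gas6 (1.87). The cell cycle genes were Cdc20 (3.49), Cenpa (3.44), Mcm5 (2.43), Mcm2 (1.97) and Pcna (1.05), and the interferon genes Isg15 (1.93) and Rsad2 (1.91).

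Toward EC moved the growth factor and receptor genes Pgf (-7.55), Inhbb (-4.97), Bmp2 (-4.64), Edn1 (-2.77), Bmp4 (-2.60), Angpt2 (-2.59), Tek (-2.42), Tgfbr2 (-2.41) and Notch2 (-1.86). The basement membrane genes were Col15a1 (-3.91), Lama2 (-3.16), Nid1 (-2.47), Lamc1 (-1.87), Col4a1 (-1.68), Lama5 (-1.48) and Col4a2 (-1.43). The chemokine and complement genes were C3 (-3.72), Ccl7 (-3.66), Ccl11 (-3.49), Ccl2 (-2.91) and Serping1 (-2.59). Pi16 (-4.43) and Gsn (-3.60), markers of resting FAP, Hoxb4 (-2.85), and Gpnmb (-6.14), Tgfbi (-5.14) and Spp1 (-3.39), which macrophages also express, moved the same way. The changes of Ackr2 (-6.67), Wnt10b (-6.63) and Kcp (-6.49) rest on 17, 7 and 15 counts in the 3 undamaged EC libraries, so their size is uncertain. The calls of 17 of the 50 were lost without undamaged pair 2, and those of 2, Col4a2 among them, without day 2 pair 6.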

How the results depend on the processing

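At day 2, 6717 genes were called, and leaving out each pair in turn gave 5829 to 6823. Without the replicate block 5234 were called, 5200 of them shared with the paired fit. The count was 6693 with RLE scaling, which moved the median of all genes by -0.0529, 7181 without a count filter, 7635 with DESeq2, 5730 in pairs 1 to 3 and 4186 in pairs 4 to 6 (3 pairs each). It was 5335 without the pairs whose code names ntx1 and 3035 in a test against a log2 fold change of 1. Of 2643 values of the 189 genes under the alternatives, 2576 kept the call, 59 lost it and 8 gained it. Direction was compared only where the main fit or the alternative called the gene, and 0 of these values changed direction.

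For day 2 against undamaged muscle, 723 genes were called, 464 without the replicate block, 754 with RLE scaling, 835 without a filter and 1348 with DESeq2. Leaving out each pair in turn gave 369 (without undamaged pair 2) to 932 (without day 2 pair 6), and 471 without undamaged pair 1. Of 650 single-gene values, 562 kept the call, 88 lost it and 0 changed direction. Causes were not tested, beyond the fewer libraries of a subset. The shallowest library held 1276196 counts, which limits genes under about 1 CPM.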

Other observations

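Guidance genes divided between the populations, with 6 of 17 semaphorin and ephrin genes higher in FAP and 11 in EC, against 27.8% and 26.3% of all genes tested. Efnb2, the arterial ephrin, stood at 117, 158 and 230 CPM in EC and 8.96, 16.9 and 35.0 in FAP (-3.12 ± 0.19, edgeR adjusted p = 7.33e-07). Its venous receptor Ephb4 was higher in EC as well, by -3.06 ± 0.21. No library of either gene overlapped between the populations. PDGF ligands were split, Pdgfc being higher in FAP at 5.93, 12.5 and 18.2 CPM against 0.45, 0.979 and 4.53 (3.20 ± 0.37) and Pdgfa in EC at 7.65, 23.0 and 56.3 CPM against 1.55, 3.72 and 6.37 (-2.64 ± 0.23).

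Of 12 chaperone and unfolded protein response genes 6 were higher in FAP and none in EC, among them the disulphide isomerase Pdia4 (1.52 ± 0.21). The inducible heat shock gene Hspa1a was higher in EC (-2.65 ± 0.23), at 161, 469 and 2071 CPM against 45.1, 58.2 and 410 in FAP, and the groups overlapped through FAP library 1. The mural cell genes Rgs5 (-6.67 ± 0.76) and Myh11 (-5.25 ± 0.68) were higher in the EC gate than in FAP, and their EC medians were 39.4% and 1.93% of those in 2 libraries of sorted pericytes.

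Both libraries of pair 1 held Xist, the X inactivation RNA of female cells, at 663 CPM in FAP and 474 in EC, together with the Y-linked gene Ddx3y at 12.9 and 22.7 CPM. In the other 10 libraries Xist was at most 1.12 CPM.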
